A study of Homo sapiens with 6 samples.

Results

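Replication-dependent histone genes are the clustered genes that supply the histones packaging newly copied DNA. Members were the rows of the count table with the symbols H1-1 to H1-6, or with H2AC, H2BC, H3C or H4C followed by digits only. That gave 66 genes of 38167 in the table: 6 of H1, 16 of H2A, 17 of H2B, 13 of H3 and 14 of H4. The RNA came from small extracellular vesicles shed by spheroids of Cal27, a cell line derived from a squamous carcinoma of the tongue, after 14 days in Matrigel. In the stiff group the gel held 12 mg/mL Matrigel and in the soft group 3 mg/mL, with 3 libraries in each, named biological replicates in the labels. All 6 libraries come from this single line grown by liquid overlay, with no genetic change or drug named in the labels, and no parental cell RNA is compared here. Counts per library, over all genes, were 2697502, 2900205 and 2977837 in stiff and 2445498, 2525947 and 2545385 in soft, in replicate order, which is the order of all values below.

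Most messengers end in a poly(A) tail, whereas the messengers of these genes are cut just after a short stem-loop, which the stem-loop binding protein SLBP holds. The genes typically have no introns, sit in clusters and are transcribed in S phase, when DNA is replicated. H2A, H2B, H3 and H4 form the core around which DNA is wound, and H1 binds the linker DNA between cores. The histones H3-3A, H3-3B, H2AZ1 and H2AZ2 are encoded by genes elsewhere, made throughout the cell cycle as polyadenylated messengers, and served as the outside comparison.

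The stem-loops below are first those of H2BC13 and H2AC13, which had the lowest fold changes among members that passed the filter on low counts. Those of H4C15, a member with no detectable difference, and of H2BC5 and H3C6 follow, each with a loop of other letters. The 16 bases of stem, 4-base loop and stem are in capitals, with 5 bases on each side, as DNA 5' to 3' in the gene's own direction, from GENCODE 29 transcripts (GRCh38).
H2BC13, chr6:27807479-27807504 on the minus strand: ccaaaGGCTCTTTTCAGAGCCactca
H2AC13, chr6:27808642-27808667 on the plus strand: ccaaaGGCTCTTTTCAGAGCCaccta
H4C15, chr1:149860764-149860789 on the minus strand: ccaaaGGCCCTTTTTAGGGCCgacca
H2BC5, chr6:26158582-26158607 on the plus strand: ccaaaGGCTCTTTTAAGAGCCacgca
H3C6, chr6:26225591-26225616 on the plus strand: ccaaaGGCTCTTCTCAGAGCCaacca
Such a stem-loop was found in the annotated transcripts of 27 of 66 members, in 6 distinct forms. The form shown for H2BC13 and H2AC13 was the most frequent, with 14 members, of which 7 were H2B, 4 H2A and 3 H3 genes. The form shown for H4C15 was found in 3 members, all H4, and that of H2BC5 in 4, of which 3 were H2B and 1 H3. In 17 of the 27 the RefSeq gene ended exactly 5 bases past the stem-loop, which is where the processed messenger ends. In 16 of the 27 the GENCODE transcript ran on for more than 100 bases. The other 39 annotated transcripts held no match, which says only that those letters were not in them.

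The members together had 909, 984 and 1005 counts in stiff libraries and 1327, 1268 and 1090 in soft libraries. Each stiff sum of raw counts was below each soft sum. The stiff libraries had more counts in all, but ribosomal RNA genes took a larger part of them, as given below. Their larger totals are therefore not a greater depth for messengers. The means were 966 ± 50.5 counts in stiff and 1228 ± 123 in soft (SD, n = 3 each), a ratio of 0.786. As a share of all counts the members held 0.0337%, 0.0339% and 0.0337% in stiff and 0.0543%, 0.0502% and 0.0428% in soft, a ratio of 0.688. Soft replicate 3 had the lowest value of its group, and the ratio of shares without it was 0.647. Other lists also held a lower share of counts in every stiff library than in any soft one. Their stiff over soft ratios of shares were 0.779 for the 4 polyadenylated variants and 0.813 for 396 olfactory receptor genes, described below. A pool of vesicles in which fewer carry histone messengers and a pool in which each carries less cannot be told apart here.

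The denominator of these shares differed between the groups. Ribosomal RNA genes took 21.8%, 20.0% and 22.9% of counts in stiff and 2.97%, 4.20% and 8.87% in soft, and soft replicate 3 was the highest soft library. Mitochondrial messenger genes took 0.162%, 0.201% and 0.165% in stiff and 1.58%, 1.81% and 1.48% in soft. With both classes taken out of the totals, the histone genes held 0.0432%, 0.0425% and 0.0438% in stiff and 0.0569%, 0.0534% and 0.0478% in soft. The groups stayed apart on that basis, with a ratio of 0.820. The part of these RNA classes in the histone values was not tested further. TMM, a scaling that sets the typical gene equal between libraries, gave summed levels of 374, 369 and 382 CPM (counts scaled to a common library size) in stiff and 487, 459 and 411 CPM in soft.

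The families differed in whether the groups of their sums overlapped. The stiff over soft ratios of the TMM-scaled sums were 0.825 for H1, 0.820 for H2B and 0.824 for H3, nearly equal, and 0.786 for H2A and 0.913 for H4. On the TMM-scaled level, H1 genes summed to 30.4, 30.0 and 28.9 CPM in stiff and 35.9, 38.0 and 34.3 CPM in soft. H2A genes summed to 99.5, 78.8 and 97.0 CPM in stiff and 122, 118 and 110 CPM in soft. In both families every stiff library was below every soft one. H3 genes behaved alike, with 90.9, 99.1 and 90.5 CPM in stiff and 118, 113 and 109 CPM in soft. H2B genes summed to 88.8, 81.4 and 87.5 CPM in stiff and 125, 101 and 88.6 CPM in soft, so that soft replicate 3 lay among the stiff libraries. H4 genes summed to 64.1, 79.9 and 78.3 CPM in stiff and 86.6, 88.4 and 68.6 CPM in soft, and here too the groups overlapped through soft replicate 3. The polyadenylated variants summed to 78.1, 81.4 and 97.3 CPM in stiff and 89.5, 88.4 and 96.5 CPM in soft, with all soft values inside the stiff range.

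**Figure D1:**
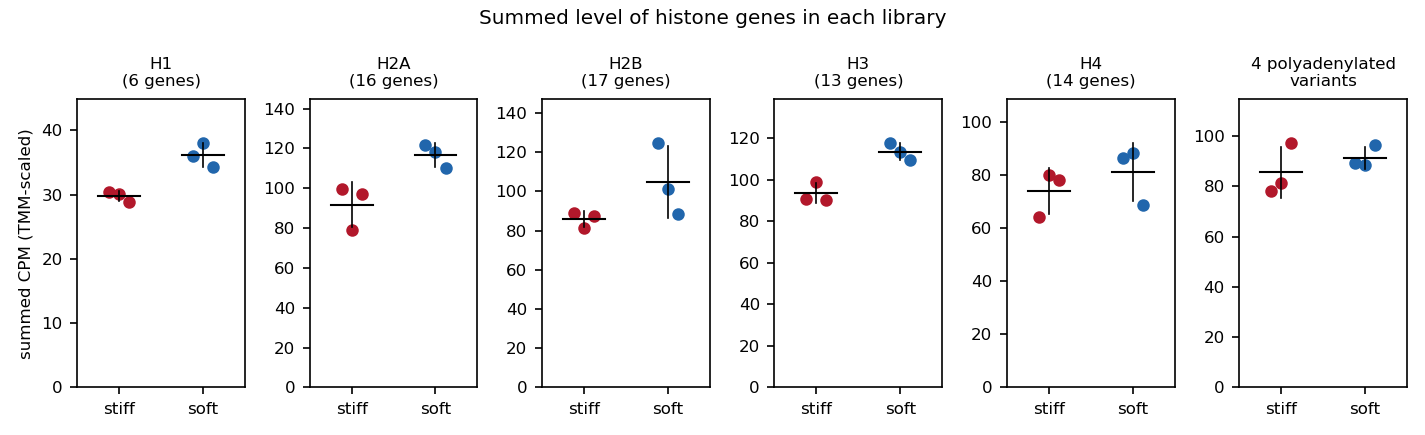
Summed TMM-scaled CPM of each histone family and of the 4 polyadenylated variants (vertical axis) in the stiff and soft libraries (points); bars are the mean and SD of 3 libraries. The H1, H2A and H3 sums of stiff libraries lie below all soft ones, while soft replicate 3 brings H2B and H4 sums into the stiff range and the variants overlap.

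No single member passed the test. With edgeR's quasi-likelihood test and Benjamini-Hochberg adjustment over all genes, 0 of the 45 members that passed the filter on low counts were called at an adjusted p under 0.05, in a comparison that called 140 of 31074 genes (0.451%). DESeq2 without its filter on mean count and limma-voom also called 0 members, and DESeq2 with that filter gave none of the 45 an adjusted p. At an unadjusted p under 0.05, 6 of the 45 were past the line, all lower in stiff, beside 4.5% of all genes tested in that direction and 5.01% in the other. The filter matters to this count, because 13 of the 45 reached its level in all soft libraries but not in all stiff ones, and 1 did the reverse. For that reason the direction was read from a fit of all genes with no filter, in which all 66 members have a value.

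In that unfiltered fit, 51 of 66 members had a log2 fold change (stiff over soft) below 0 and 15 above 0, where 50.3% of 38087 genes were below 0. The median of the members was −0.29, and the median of all genes was −0.00204. Of the 66, 0 were called, beside 0.373% of all genes. The range ran from −1.44 for H2BC13 to 0.74 for H2AC1. At an unadjusted p under 0.05, 8 members were lower in stiff, beside 4.15% of all genes, and 0 were higher, beside 4.61%. In 11 members the CPM of every stiff library lay below every soft library, beside 6.36% of all genes with a count, and in 1 member, H1-2, it lay above, beside 6.93%. The 11 were H3C14, H2BC1, H1-1, H1-4, H2BC7, H3C7, H2BC13, H2AC13, H2AC14, H2AC15 and H2BC15. Across the 66 members the fold change had a Pearson r of −0.14 with GC content, 0.026 with the log2 of mean CPM and 0.22 with the log2 of gene span. These are descriptions across genes, many of which share clusters or sequence.

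**Figure D2:**
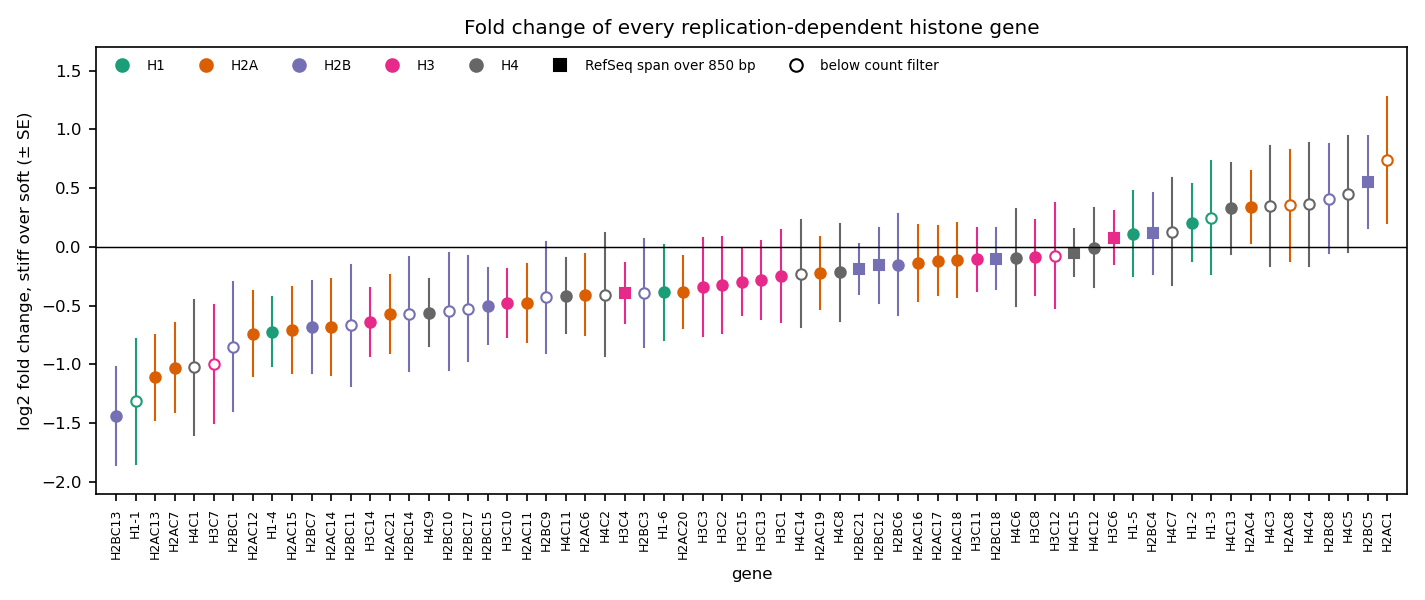
Log2 fold change of each of 66 histone genes (vertical axis, stiff over soft, bars ± SE) in the unfiltered edgeR fit, ordered from lowest to highest, with colour for family. Open symbols are genes under the count filter and squares are genes with a RefSeq span over 850 bp; 51 of the 66 points lie below 0.

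H2BC13, an H2B gene at chr6:27807479-27807929 on the minus strand, had the lowest ratio. It had 5, 6 and 9 counts in stiff libraries and 27, 21 and 10 in soft libraries, or 2.58 ± 0.739 CPM and 7.09 ± 3.10 CPM (SD, n = 3 each). Every stiff count was below every soft count, by a margin of a single count at soft replicate 3. The gene reached the filter's level in 0 stiff libraries and in all soft ones. The fitted log2 ratio was −1.44 ± 0.42 (SE; edgeR adjusted p = 0.0913, and 0.0892 with no filter). Without soft replicate 3, the soft library nearest the stiff ones, it was −1.74 and passed the threshold (adjusted p = 0.0293). Leaving out that library favours a call, and without soft replicate 1 instead the log2 ratio was −1.13 (edgeR adjusted p = 0.491). Adjusted p-values over all alternatives ran from 0.00332 under library totals alone to 0.904 with DESeq2.

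H2AC13 is the H2A gene that faces H2BC13 across a shared promoter, at chr6:27808173-27808667 on the plus strand. It had 12, 9 and 9 counts in stiff libraries and 23, 26 and 20 in soft libraries, with no overlap. On the log2 scale the difference was −1.11 ± 0.36 (SE), with an edgeR adjusted p of 0.175. The gene reached the filter's level in 1 stiff library and in all soft ones, and the fit with no filter gave an adjusted p of 0.191. Of its 61-base stretches, the length of a read, 61.4% also occur in other genes, so its counts may include reads of other H2A copies. H2BC13 shares 5.37%.

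H2AC7, an H2A gene on chromosome 6, had 18, 6 and 4 counts in stiff libraries and 21, 21 and 19 in soft libraries. Stiff replicate 1 lay close to the soft libraries, above soft replicate 3 on the CPM level, and the other two stiff libraries lay far below. The gene reached the filter's level in 1 stiff library and in all soft ones, and the edgeR fit with no filter gave an adjusted p of 0.290. With the filter the fitted log2 ratio was −1.03 ± 0.39 (SE), at an edgeR adjusted p of 0.280. Without stiff replicate 1 it was −1.96 with an adjusted p of 0.0447, and over all alternatives the adjusted p ran from 0.0169 to 1.00. Leaving out stiff replicate 1, the stiff library nearest the soft ones, favours a call. Without stiff replicate 3 instead the log2 ratio was −0.65 (edgeR adjusted p = 0.702). The gene lies inside the annotated span of H3C4 on the same strand, and 97.9% of its 61-base stretches also occur in other annotated genes. H3C4, an H3 gene, had 44, 28 and 12 counts in stiff and 36, 36 and 45 in soft, with stiff replicate 1 again the highest stiff library. Since the spans overlap, the counts of these 2 genes cannot be taken as separate measurements.

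H1-4, a linker histone gene of dividing cells at chr6:26156329-26157115 on the plus strand, has no 61-base stretch in common with another gene. It had 18, 19 and 18 counts in stiff libraries and 35, 33 and 28 in soft libraries, the most even separation of the named genes. The fitted log2 ratio was −0.72 ± 0.29 (SE), at an edgeR adjusted p of 0.337. Of the other linker genes, H1-1 had 1, 5 and 6 counts in stiff and 8, 10 and 14 in soft, again with no overlap, whereas H1-2 had 20, 20 and 19 in stiff and 19, 17 and 18 in soft. H1-1 and H1-2 were picked out after their values were seen.

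4 further genes complete the 8 with the smallest p. H3C14, an H3 gene on chromosome 1 whose sequence is wholly repeated in other genes, most of it in H3C15, had 20, 16 and 21 counts in stiff and 30, 36 and 28 in soft (log2 fold change −0.64, adjusted p = 0.439). H3C15 itself had 14, 29 and 27 in stiff and 30, 35 and 26 in soft (−0.31), and here the groups overlapped. H2AC12 had 11, 15 and 9 counts in stiff and 30, 21 and 11 in soft (−0.74, adjusted p = 0.497). It reached the filter's level in 2 stiff libraries and in all soft ones (edgeR adjusted p with no filter 0.545). H4C9 had 13, 23 and 25 counts in stiff and 33, 38 and 24 in soft (−0.56, adjusted p = 0.525). In both H2AC12 and H4C9 soft replicate 3 lay within the range of the stiff libraries. H2AC15 had 13, 6 and 15 counts in stiff and 17, 19 and 23 in soft (−0.71, adjusted p = 0.535), with no overlap. It reached the filter's level in 2 stiff libraries and in all soft ones (edgeR adjusted p with no filter 0.579). All of its 61-base stretches also occur in other annotated genes. The gene sharing most is H2BC15, the H2B gene that faces it, so the match may be an overlap of annotations and not a copy.

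**Figure D3:**
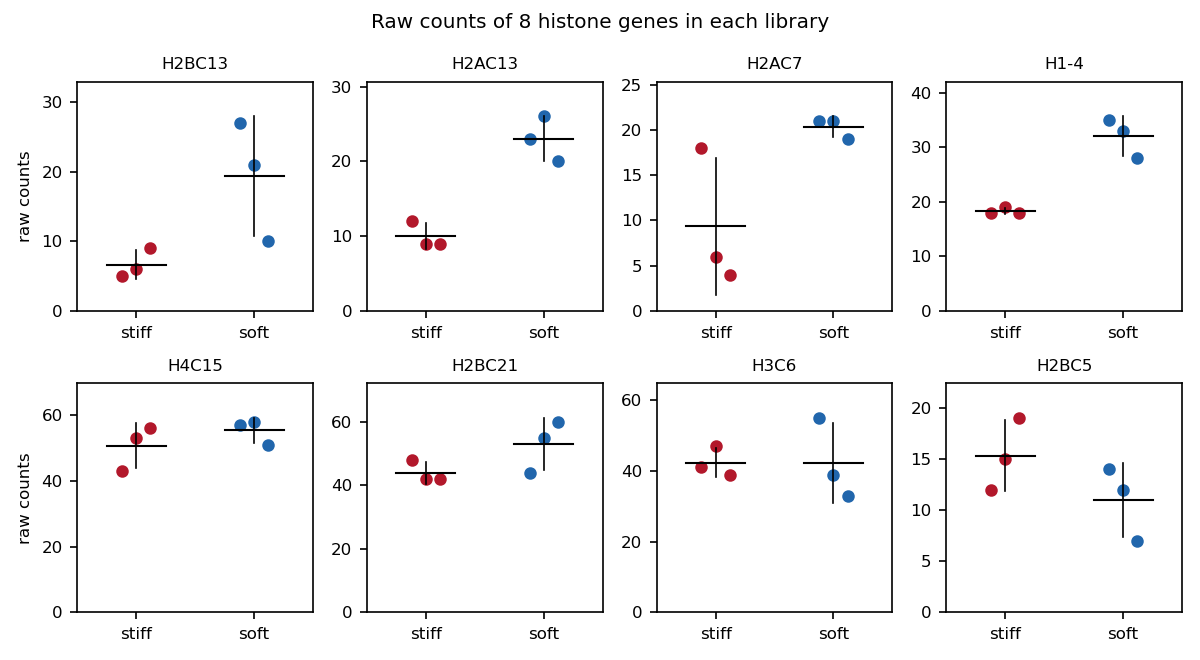
Raw counts (vertical axis) of 8 histone genes in the stiff and soft libraries (points, with mean and SD of 3 libraries). H2BC13, H2AC13, H2AC7 and H1-4 in the upper row have every stiff count below every soft count, and H4C15, H2BC21, H3C6 and H2BC5 in the lower row overlap.

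The 8 members with the highest mean CPM ran from a log2 fold change of −0.56 to 0.08, and all of them had overlapping groups. H4C9, H3C4 and H3C15, described above, had −0.56, −0.40 and −0.31. H4C15, an H4 gene on chromosome 1, had 43, 53 and 56 counts in stiff and 57, 58 and 51 in soft (log2 fold change −0.05 ± 0.20, SE; edgeR adjusted p = 0.967). H2BC21 had 48, 42 and 42 counts in stiff and 44, 55 and 60 in soft (−0.19). H3C6 had 41, 47 and 39 counts in stiff and 55, 39 and 33 in soft (0.08). The groups of all 3 genes overlapped. H2BC18 had 33, 24 and 31 counts in stiff and 39, 35 and 26 in soft (−0.11). H3C11 had 22, 36 and 24 counts in stiff and 30, 25 and 38 in soft (−0.11). Of the 5 genes given here H3C11 alone is short.

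The members lowest in counts and those highest in fold change complete the range. The 3 tested members with the highest fold changes were H2BC5, with 12, 15 and 19 counts in stiff and 14, 12 and 7 in soft (0.55, adjusted p = 0.701), H2AC4 (0.34) and H4C13 (0.32). H2AC4 had 22, 21 and 29 counts in stiff and 21, 22 and 17 in soft. H4C13 had 15, 18 and 11 counts in stiff and 17, 11 and 9 in soft. None of these 3 separated the groups. H4C1 had 3, 4 and 4 counts in stiff and 4, 8 and 12 in soft. H2AC1 and H2BC1, a pair known from the testis, had 8, 11 and 5 counts in stiff against 4, 4 and 7 in soft, and 3, 7 and 3 in stiff against 8, 9 and 8 in soft. These last 3 genes were below the count filter. No member had a count of 0 in any library, and 3 members stayed under 10 counts in every library.

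Members differed in annotated length. In RefSeq 58 members span at most 850 bp, the form that ends near the stem-loop, and 8 span more: H2BC18, H4C15, H2BC21, H2BC4, H2BC5, H3C4, H3C6 and H2BC12. The short members summed to 647, 747 and 767 counts in stiff and 1028, 992 and 846 in soft, with no overlap and a ratio of 0.754. The longer members summed to 262, 237 and 238 counts in stiff and 299, 276 and 244 in soft, which overlapped, with a ratio of 0.900. The quotient of short over longer members was 2.47, 3.15 and 3.22 in stiff and 3.44, 3.59 and 3.47 in soft. Every stiff library had the lower quotient, and stiff replicate 1 was the lowest. The median log2 fold change in the unfiltered fit was −0.36 for short and −0.08 for longer members, a description with no test. The longer spans also hold other genes: H2AC19 and H3C15 lie within H4C15, and H4C9 lies within H2BC12, on the opposite strand in each case. The strand setting of the counting is not given in the sources used here, so reads of these overlapping genes cannot be told apart.

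Members also differed in how much sequence they share with other annotated genes, which may be copies or overlap them. In 16 members at least 50% of the 61-base stretches occur in another gene, and in 50 members less. The members with shared sequence summed to 288, 301 and 310 counts in stiff and 400, 436 and 370 in soft, a ratio of 0.745. The other members summed to 621, 683 and 695 counts in stiff and 927, 832 and 720 in soft, a ratio of 0.806. The groups were apart in both. In the unfiltered fit all 16 of the first kind and 35 of the 50 of the second kind had a fold change below 0.

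The genes lie in 4 stretches of the genome. On chromosome 1, 11 members had a fold change below 0 of 11, and their counts summed to 233, 264 and 292 in stiff and 330, 355 and 303 in soft. In the large chromosome 6 cluster, 21 of 34 members were below 0, with sums of 404, 399 and 404 counts in stiff and 544, 467 and 434 in soft. In both stretches every stiff sum of raw counts was below every soft sum. On the TMM-scaled level the chromosome 1 groups stayed apart, but those of the large cluster overlapped. Its sums were 166, 150 and 154 CPM in stiff and 200, 169 and 164 CPM in soft. The stretch of chromosome 6 with H2BC11, H2AC11, H2BC12, H4C9 and H2AC12 had 5 of 5 members below 0, with 65, 74 and 75 counts in stiff and 127, 119 and 72 in soft. There soft replicate 3 lay within the stiff range, and the ratio of 0.673 became 0.580 without it. The last stretch, also on chromosome 6, which holds H2AC13 and H2BC13, had 14 of 16 members below 0, with 207, 247 and 234 counts in stiff and 326, 327 and 281 in soft.

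H2A and H2B genes often stand head to head and share the DNA between them as promoter. The stretches between the 2 pairs with the lowest fold changes, from the RefSeq promoter table (GRCh38.p14), are printed with motifs in capitals: the CCAAT box (ccaat), the TATA motif (tataaa) and the octamer (atttgcat), which the factor OCT1 binds in H2B promoters, each on either strand.
H2AC13 and H2BC13, chr6:27807930-27808172 on the minus strand: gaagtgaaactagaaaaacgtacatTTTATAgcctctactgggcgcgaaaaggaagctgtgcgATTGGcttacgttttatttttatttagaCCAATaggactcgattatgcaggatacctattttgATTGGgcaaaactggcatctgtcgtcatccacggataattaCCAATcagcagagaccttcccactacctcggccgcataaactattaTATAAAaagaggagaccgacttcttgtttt
H2AC7 and H2BC7, chr6:26199294-26199515 on the plus strand: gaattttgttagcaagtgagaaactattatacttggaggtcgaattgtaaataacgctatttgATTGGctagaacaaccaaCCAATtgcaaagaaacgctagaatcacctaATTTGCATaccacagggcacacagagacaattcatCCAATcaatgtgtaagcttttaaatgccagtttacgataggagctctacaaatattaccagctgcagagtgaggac
The first stretch holds 4 CCAAT boxes, 2 TATA motifs and 0 octamers, and the second 3 CCAAT boxes, 0 TATA motifs and 1 octamer. Of 61 members with a RefSeq window of 250 bases before to 50 after the start, 26 held the octamer (42.6%), beside 2.19% of 27305 genes. They were 11 of 15 H2A, 14 of 17 H2B, 1 of 11 H3, 0 of 12 H4 and 0 of 6 H1 genes. The CCAAT box was in 52 of 61 members, beside 39.7% of all genes, and in 3 of 12 H4 genes. The TATA motif was in 42 of 61, beside 14.0%. Motifs were searched separately and may overlap, windows of facing genes share bases, and a match is a stretch of letters, not a shown binding site.

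There were 11 such pairs, 193 to 247 bp apart. In 8 pairs both genes had a fold change below 0, in 1 pair, H2AC8 and H2BC8, both were above 0, and in 2 pairs the genes differed in sign. The pair of H2AC13 and H2BC13 had 50 counts in all stiff libraries and 127 in all soft libraries. The pair of H2AC7 and H2BC7 had 58 in stiff and 112 in soft, with log2 fold changes of −1.03 and −0.68. H2AC8 and H2BC8 had 57 counts in stiff and 46 in soft (0.35 and 0.41). The testis pair, H2AC1 and H2BC1, differed most in sign (0.74 and −0.85), on 39 and 38 counts over all 6 libraries.

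**Figure D4:**
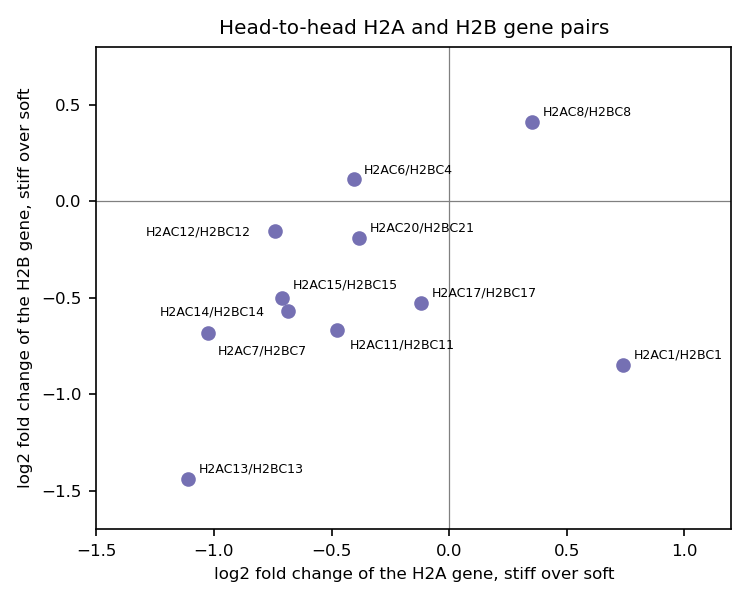
Log2 fold change (stiff over soft, unfiltered edgeR fit) of the H2A gene (horizontal axis) and of the H2B gene (vertical axis) in 11 head-to-head pairs, with a point for each pair. 8 pairs lie where both are below 0, with H2AC13 and H2BC13 the lowest.

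Per length the histone genes stood above genes that squamous cells are not known to use. Levels were set as raw counts per kb of RefSeq span in protein-coding genes of at most 1200 bp. The 58 short histone genes had median levels of 21.8, 21.7 and 24.1 counts per kb in stiff libraries and 37.2, 29.2 and 29.7 in soft libraries. The 173 olfactory receptor genes, which encode odour sensors of the nose, had medians of 11.7, 12.9 and 12.1 counts per kb in stiff and 13.9, 13.4 and 12.5 in soft. The other 313 short genes had medians of 16.1, 18.1 and 18.2 in stiff and 17.9, 18.6 and 18.2 in soft. The histone medians were thus the highest of the 3 classes in every library, and among these medians only theirs had every stiff library below every soft one. Such separation was not confined to histone genes on other measures. On the TMM-scaled level the 396 olfactory receptor genes summed to 4141, 4150 and 4065 CPM in stiff and 4299, 4181 and 4169 CPM in soft. The groups were apart there too, at a ratio of 0.977 against 0.829 for the 66 histone genes. Of the 58 histone genes, 28 in stiff and 38 in soft were above the 90th percentile of the olfactory genes, which was 22.1 counts per kb in stiff and 22.4 in soft. The classes differ in base composition, with a median GC content of 58.4% for histone, 45.5% for olfactory and 53.6% for other short genes. They also differ in length, with a median span of 488 bp for histone, 948 bp for olfactory and 878 bp for other short genes. The part of length and composition in the levels per kb was not tested.

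Among single genes the order per length was not that of the raw counts. H4C9 had the highest soft level, 51.2 counts per kb in stiff and 79.8 in soft, followed in soft by H3C11 (54.4 in stiff, 61.8 in soft), H3C10 (41.8 and 61.7) and H4C11 (43.7 and 61.7). H3C11 was therefore the highest in stiff. Among the short genes the lowest stiff levels were those of H1-1 (5.29 counts per kb in stiff, 14.1 in soft) and H2BC1 (7.62 and 14.6). The lowest soft levels were those of H1-3 (11.2 in stiff, 9.88 in soft) and H2AC1 (16 and 10), both higher in stiff. H2AC1, H2BC1 and H1-6, known as testis histones and grouped after their values were seen, had median levels of 13.8, 15.2 and 10.0 counts per kb in stiff and 14.1, 15.8 and 14.0 in soft, close to the olfactory genes.

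**Figure D5:**
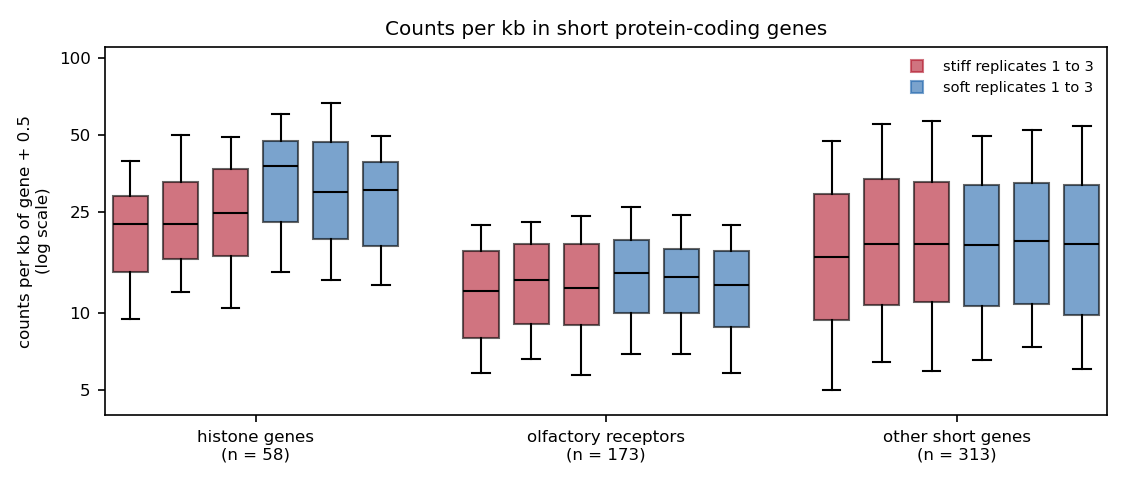
Raw counts per kb of RefSeq span plus 0.5 (log axis) in 58 histone, 173 olfactory receptor and 313 other protein-coding genes of at most 1200 bp, with a box for each library (line: median; box: quartiles; whiskers: 10th and 90th percentiles). The histone medians of the 3 stiff libraries lie below those of the 3 soft libraries, although levels of single genes overlap between the groups. The olfactory and other medians lie at about the same height in both groups.

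The polyadenylated variants were mostly level. H2AZ2, an H2A.Z gene, had 117, 124 and 132 counts in stiff and 128, 135 and 127 in soft (log2 fold change 0.01 ± 0.13, SE; edgeR adjusted p = 0.990). H3-3B had 43, 52 and 69 counts in stiff and 69, 47 and 58 in soft (−0.01). H2AZ1 had 6, 12 and 11 counts in stiff and 11, 8 and 18 in soft (−0.28). The groups of all 3 genes overlapped. H3-3A, which encodes the same H3.3 protein as H3-3B, had 24, 29 and 44 counts in stiff and 36, 54 and 53 in soft (−0.49 ± 0.23, SE; edgeR adjusted p = 0.484), also with overlap. The counts of the 66 members over those of the 4 variants gave quotients of 4.78, 4.53 and 3.93 in stiff and 5.44, 5.20 and 4.26 in soft. These overlapped, so a difference relative to the variants was not beyond the spread of the libraries. Per kb of GENCODE exon, H2AZ2 had 26.2 counts in stiff and 27.4 in soft, H3-3A 10.3 and 15.2, H3-3B 8.91 and 9.46, and H2AZ1 4.20 and 5.36. H3-3A, H3-3B and H2AZ1 were below the medians of the short histone genes in both groups, although those are per kb of RefSeq span, a related but different length.

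Genes that act on histone messengers or in S phase held no call. Of 23 genes of histone messenger transcription and 3' processing, 22 were tested, 0 were called, and the median log2 fold change was −0.01. CPSF3, the endonuclease that cuts histone messengers after the stem-loop, had 57, 51 and 37 counts in stiff and 80, 79 and 72 in soft, with no overlap (−0.59 ± 0.19, SE; edgeR adjusted p = 0.152). UPF1, a helicase that takes part in histone messenger decay, was the highest of them, with a fold change of 0.09. Of 26 genes of S phase and replication all were tested, 0 were called and the median was −0.01. TYMS, the thymidylate synthase, had 67, 71 and 80 counts in stiff and 46, 62 and 55 in soft (0.49, adjusted p = 0.270), with every stiff count above every soft one. PCNA, the sliding clamp of DNA polymerase, named after its values were seen, had 22, 21 and 31 counts in stiff and 39, 39 and 40 in soft, with every stiff count below every soft one (−0.60, adjusted p = 0.399). POLD1, the catalytic subunit of DNA polymerase delta, had a fold change of 0.23 (adjusted p = 0.368).

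Further histone genes outside the member rule, 18 of which 17 were tested, also had 0 calls and a median of −0.03. H1-7, a linker histone of the testis, had 31, 37 and 56 counts in stiff and 63, 72 and 62 in soft (−0.59, adjusted p = 0.206). MACROH2A1, which encodes a large H2A variant, was the highest, with 183, 203 and 192 counts in stiff and 184, 158 and 207 in soft (0.15). The 3 histone pseudogenes in the table had 0 calls: H2BC20P had 19, 15 and 14 counts in stiff and 12, 19 and 36 in soft (−0.40), and H2AC2P 28, 24 and 37 in stiff and 34, 32 and 17 in soft (0.18). Of 396 olfactory receptor genes 331 were tested, 0 were called, and the median was −0.03. OR1A1 had a fold change of 0.57 (adjusted p = 0.206) and OR4K13, the highest, −0.07.

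Markers did not set the cell type apart sharply in these libraries. All 10 squamous markers passed the count filter, with 25 counts or more in every library, and 1 of them, the basal keratin KRT14, was called, with 85, 103 and 70 counts in stiff and 50, 69 and 49 in soft (0.69, edgeR adjusted p = 0.0281). All 8 markers of blood, fibroblasts and endothelium, which a carcinoma line should lack, also passed, with at least 14 counts in every library, 0 of them at 0 and 0 called.

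The scaling of the libraries bears on the number of calls. With library totals alone in place of TMM, the median over all genes tested moved to −0.27 on the log2 scale, and that of the 45 tested members to −0.55. In that fit 7 of the 45 members were called lower in stiff, a share near the 13.4% of all genes called lower. They were H3C14, H1-4, H2AC7, H4C9, H2AC12, H2BC13 and H2AC13. Of these, H2AC7, H2AC12, H2BC13 and H2AC13 reached the filter's level in all soft libraries but not in all stiff ones. A change of scaling moves the log2 fold changes of all genes by nearly the same amount. The members' shift relative to the median of all genes therefore had to stay nearly the same, and it did.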

How the data were processed

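RNA of small extracellular vesicles was measured by directional RNA sequencing of total RNA (about 10 ng input, 9 PCR cycles, pairs of 61 bases), per the labels' protocols. The authors deposited raw counts of reads per gene symbol in 1 table, with no normalization. FastQC 0.11.7, Trim Galore 0.4.2, cutadapt 1.9.1, STAR 2.6.1e, featureCounts 1.6.2, DESeq2 1.26.0 and the build hg38 are named in the submitters' processing notes. Annotation, strand setting and the handling of multiply mapping or overlapping reads are not given in the sources used here. In the labels' descriptions 2 stiff libraries carry the same replicate number, and titles were used.

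The stiff libraries were set against the soft ones with edgeR 4.0.16 in R 4.3.3: TMM, filterByExpr (10 counts at the median library, 3.81 CPM), robust quasi-likelihood fits, two-sided tests with group as the single term, and Benjamini-Hochberg adjustment over the 31074 genes left (7093 removed). A call is an adjusted p under 0.05. The same fit without the filter gave values for all 66 members. Alternatives were other scalings, filters, DESeq2 1.42.0, limma-voom (limma 3.58.1), a GC correction, a replicate block and leaving out each library. Scripts were tested on simulated counts. Sums and counts per kb are descriptions with no test. Stem-loops came from each member's shortest GENCODE 29 transcript and promoters from RefSeq. All 66 members were found in both annotations.

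The members and lists were chosen with earlier results of these data known. Named with counts are the 8 members with the highest mean CPM, the 8 with the smallest p, the 3 highest fold changes among tested members, the 3 lowest counts, the 4 variants, and in each list any called gene, or else the one with the smallest p, plus the highest level. Totals of 2445498 to 2977837 counts leave members with 1 to 60 counts a library. No molecular identifiers are named in the labels, so reads copied by PCR from the same molecule were not merged, and no counting intervals are given.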

Additional observations from a re-analysis of the deposited data

How the results depend on the processing

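The members in each fit kept a median log2 fold change below 0 under every alternative run. It was −0.29 over the 45 tested members, and also −0.29 over all 66 with no filter. Of the 45, 13 reached the filter's level in all soft libraries but not in all stiff ones, and 1 did the reverse. Under library totals alone the members' median was −0.55, where that of all genes tested was −0.27. It was −0.20 over the 25 members with 10 or more counts in every library, and −0.24 to −0.35 when 1 library was left out. DESeq2 with its filter gave no member an adjusted p. In the other fits the number of members called was 0, except for 7 under library totals alone and 0 to 1 when 1 library was left out. The number of all genes called was 140, and it was 4194 under library totals alone, 67 with DESeq2 and its filter, 43 without that filter, 91 with limma-voom, 61 after GC correction and 60 to 136 when 1 library was left out. The members' share of counts, stiff over soft, was 0.688, and 0.820 without mitochondrial and ribosomal RNA genes in the totals. The variants' median was −0.15, and −0.41 under library totals alone. Same-numbered libraries did not deviate together (correlations −0.00363 to 0.00346), and with a replicate block 173 genes and 0 members were called, with a member median of −0.28.

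Of 536 gene values over 32 named genes, 474 kept direction and side of the threshold, 29 kept direction but got no adjusted p from DESeq2 with its filter, 12 gained a call and 21 changed sign. Under library totals alone H2AZ2 was −0.26, H3C6 −0.19, UPF1 −0.18, MACROH2A1 −0.12, H2AC2P −0.10 and POLD1 −0.0386. When 1 library was left out the sign changed for 10 genes, with ranges of −0.20 to 0.13 for H3-3B, −0.52 to 0.12 for H2AZ1, −0.0171 to 0.0386 for H2AZ2, −0.11 to 0.0158 for H4C15, −0.0558 to 0.31 for H3C6, −0.24 to 0.0446 for H2BC18, −0.33 to 0.0836 for H3C11, −0.70 to 0.14 for H2BC20P, −0.0578 to 0.35 for H2AC2P and −0.15 to 0.00336 for OR4K13. The causes were not tested. Counts of 1 to 60 a library limit what each member can show alone.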
